A study of Mus musculus with 6 samples.

Results

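Canonical Wnt receptors and intracellular transducers were examined as a list of 36 genes, chosen by name for their place in the pathway: 10 frizzled receptors, 2 LRP co-receptors, 3 R-spondin receptors, 2 E3 ligases that clear frizzleds from the membrane, 7 members of the destruction complex, 3 dishevelleds, 4 TCF/LEF factors, 2 BCL9 cofactors and 3 antagonists of the response. All 36 were among the 23159 genes of the deposited tables, and 33 were among the 13728 genes with enough counts to be tested. *Lgr5*, *Rnf43* and *Axin2* lay under the low-count filter. RNA had been sequenced from label-retaining chondrocytes (LRCs), which divide slowly and keep the nuclear label H2B-EGFP, and from non-LRCs, which have diluted it, both sorted by flow cytometry from growth plates of the distal femur and proximal tibia. In each of 3 independent experiments, cells of several littermate mice gave 1 LRC and 1 non-LRC library. The comparison asks which components of the canonical Wnt pathway label-retaining chondrocytes express at another level than chondrocytes that have diluted the label.

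The mice of both groups were homozygous for 4 alleles: Col2a1-tTA, inserted near *Peli2*; TRE-H2B-GFP, in the *Col1a1* locus; Col2a1-creER; and R26R-tdTomato. All mice were 49 days old at analysis (P49), had received doxycycline from P21 to P49, which shuts off new H2B-EGFP, and had received tamoxifen at P46 and P47, which switches on tdTomato. LRCs were the H2B-GFP(high) and non-LRCs the H2B-GFP(mid-low) cells among tdTomato-positive, CD45-negative cells, at about 10000 and about 50000 cells per library. A *Col2a1* promoter drove both tTA and creER, so that the sort aimed at cells in which that promoter had been active. The purity of the sort was not tested here. No untreated or unlabelled group was part of the experiment.

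Canonical Wnt ligands bind a frizzled receptor together with LRP5 or LRP6. The bound receptors recruit dishevelled and take the scaffold Axin away from the destruction complex, in which APC, GSK3 and casein kinase 1 otherwise mark β-catenin for degradation. Stabilized β-catenin then enters the nucleus, where with BCL9 it turns TCF/LEF factors into activators. R-spondins, through LGR receptors, hold off RNF43 and ZNRF3, the E3 ligases that remove frizzleds, and several pathway members such as *Axin2*, *Lef1*, *Rnf43* and *Nkd1* are themselves induced by the pathway in many tissues. In the growth plate, β-catenin is known for promoting chondrocyte maturation.

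The frizzleds and dishevelled meet at a short motif in the cytoplasmic tail of the receptor, made of lysine, threonine, any 3 residues and tryptophan. The coding sequence of every frizzled (GENCODE vM21, GRCm38) held this motif, found by its codons at exactly 1 place in each of the 10 genes. The stretches are shown because frizzleds are the largest group of the list and the point where the signal enters the cell. They are given 5′ to 3′ on the coding strand with the lysine, threonine and tryptophan codons in capitals, and *Fzd8* is named only.
Fzd1: AAGACActgaattccTGG
Fzd2: AAGACActgcactcgTGG
Fzd3: AAGACAtgctttgaaTGG
Fzd4: AAAACTcttcacacgTGG
Fzd5: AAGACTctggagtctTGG
Fzd6: AAGACGtgcacagaaTGG
Fzd7: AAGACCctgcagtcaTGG
Fzd9: AAGACTtttcagactTGG
Fzd10: AAGACCctgcagtccTGG

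The motif stood 18 codons before the stop of *Fzd1*, *Fzd2* and *Fzd7*, between 34 and 75 codons before that of *Fzd4*, *Fzd5*, *Fzd8*, *Fzd9* and *Fzd10*, and 160 and 207 codons before that of *Fzd3* and *Fzd6*, which had the longest tails. *Fzd3* and *Fzd6* also shared a cysteine codon, in lower case, right after the threonine codon. Both receptors are best known for planar cell polarity, a branch of Wnt signaling that does not use β-catenin.

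Promoters were read from RefSeq (GRCm38.p6) as the 250 bases before each annotated start, for the 23 members that had an entry. The core of the TCF/LEF binding motif was searched as CTTTGAA or CTTTGAT on both strands. It was present in 1 of 30 member windows, that of *Gsk3a*, 158 bases before the start, and in 7.48% of all 32851 RefSeq windows. No match says only that these letters are not in the window. The windows of *Lef1* (the most upstream of its starts) and *Fzd1* are shown because these genes had the lowest p of the list, that of *Axin2* because the gene is a classical target of β-catenin and TCF, and that of *Gsk3a* for its match, which is in capitals. They lie at chr3:131110047-131110296 (plus strand), chr5:4758217-4758466 (minus strand), chr11:108920099-108920348 (plus strand) and chr7:25237852-25238101 (minus strand), each given 5′ to 3′ on the strand of the gene.
Lef1: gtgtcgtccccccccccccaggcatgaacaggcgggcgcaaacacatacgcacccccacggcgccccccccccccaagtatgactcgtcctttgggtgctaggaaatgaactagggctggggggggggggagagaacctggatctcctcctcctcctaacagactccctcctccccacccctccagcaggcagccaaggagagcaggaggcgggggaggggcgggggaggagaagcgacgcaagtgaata
Fzd1: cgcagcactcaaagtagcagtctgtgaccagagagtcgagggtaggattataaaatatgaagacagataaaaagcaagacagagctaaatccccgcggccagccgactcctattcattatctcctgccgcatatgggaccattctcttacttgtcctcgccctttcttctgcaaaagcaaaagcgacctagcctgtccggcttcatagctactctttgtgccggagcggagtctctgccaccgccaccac
Axin2: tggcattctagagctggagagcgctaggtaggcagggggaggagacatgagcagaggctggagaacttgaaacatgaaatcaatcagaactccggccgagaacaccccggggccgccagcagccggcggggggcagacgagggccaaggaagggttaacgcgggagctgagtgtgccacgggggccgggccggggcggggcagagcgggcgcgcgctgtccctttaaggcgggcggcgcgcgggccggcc
Gsk3a: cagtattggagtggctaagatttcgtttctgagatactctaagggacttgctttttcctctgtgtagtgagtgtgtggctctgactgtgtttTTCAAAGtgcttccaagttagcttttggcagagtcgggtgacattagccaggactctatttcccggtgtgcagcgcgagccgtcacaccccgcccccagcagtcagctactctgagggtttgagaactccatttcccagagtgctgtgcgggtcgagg

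Member windows were rich in CpG pairs, with a median of 15.5 per window and a GC content of 65.8%, against 6 and 52.4% over all windows. The windows printed held 11 CpG pairs for *Lef1*, 12 for *Fzd1*, 24 for *Axin2* and 9 for *Gsk3a*.

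Total counts lay between 18943789 and 129559872 per library. The LRC library of experiment 2 stood apart: it was the smallest, and 12.6% of the genes tested had no count in it, against 0.0291% to 2.66% in the other libraries. A total of 5 members were at 0 there (*Fzd4*, *Fzd5*, *Lgr5*, *Rnf43* and *Axin2*), where a count of 0 allows up to 0.143 CPM (counts scaled to library size with TMM factors). Values without experiment 2 are therefore given beside those that it moves by more than 1.5 times or whose call it changes, other than fitted log2 fold changes under 0.1 in size. *Col2a1* was between 63409 and 189528 CPM in all libraries, so that the defining marker of the chondrocyte label was abundant throughout. The 16 growth plate chondrocyte genes summed to 96536 to 248142 CPM in LRCs and 157368 to 267251 CPM in non-LRCs, and 12 of them were lower in LRCs in all 3 experiments, of which none passed in edgeR and 6 of the 16 passed as lower with DESeq2. The sums of 4 further marker lists did not overlap between the groups. The 11 superficial articular or synovial genes summed to 786 to 2633 CPM in LRCs and 322 to 491 CPM in non-LRCs, and 4 of them rose in LRCs and none fell. One of the risers was *Prg4*, whose RNA the paper also detected by in situ hybridization in the resting zone, at a low level. The 10 fibroblast and perichondrium genes summed to 2666 to 3085 and 1371 to 2330 CPM, with no gene passing the edgeR test. With DESeq2, 4 of them passed as higher in LRCs and 1 as lower. Skeletal muscle genes summed to 6.80 to 10.5 and 14.3 to 16.8 CPM, and erythroid genes to 0.993 to 3.98 and 4.88 to 9.52 CPM, again with none passing in edgeR. With DESeq2, 1 erythroid gene passed as lower in LRCs and no muscle gene passed. Of 10 hypertrophic genes, *Mef2c* and *Panx3* fell in LRCs in edgeR, and 5 passed as lower and none as higher with DESeq2. Of 10 osteoblast markers, *Col1a1* rose in edgeR. Of the 9 osteoblast markers tested, 6 had a lower fitted level in LRCs, and with DESeq2 1 passed as higher and 3 as lower. The osteoblast genes summed to 1404 to 3179 CPM in LRCs and 1298 to 2189 CPM in non-LRCs. Leukocyte genes summed to 26.5 to 52.8 and 17.7 to 31.6 CPM, and the 8 endothelial genes to 2.02 to 4.21 and 1.75 to 3.19 CPM, with *Cdh5*, *Kdr* and *Emcn* at 0 in every library. The part of other cell types in the results below was not tested. In bulk RNA, fewer cells that express a gene and less of its RNA per cell cannot be told apart.

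Levels of different genes were compared per kilobase of annotated exons. *Ctnnb1*, which encodes β-catenin, was the most abundant member in every library, at 72.1 to 93.5 CPM per kilobase in LRCs and 74.5 to 123 in non-LRCs. *Csnk1a1* (casein kinase 1α), *Dvl1*, *Tcf7*, *Axin1* and *Fzd9* followed, each with a mean above 9 CPM per kilobase in both groups. At the other end, *Lgr5*, *Rnf43* and *Axin2* did not pass 0.0676 CPM per kilobase in any library. The top of the order thus held members of the destruction complex, a dishevelled, a TCF factor and a frizzled, and the bottom an R-spondin receptor, an E3 ligase and a feedback gene.

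**Figure D1:**
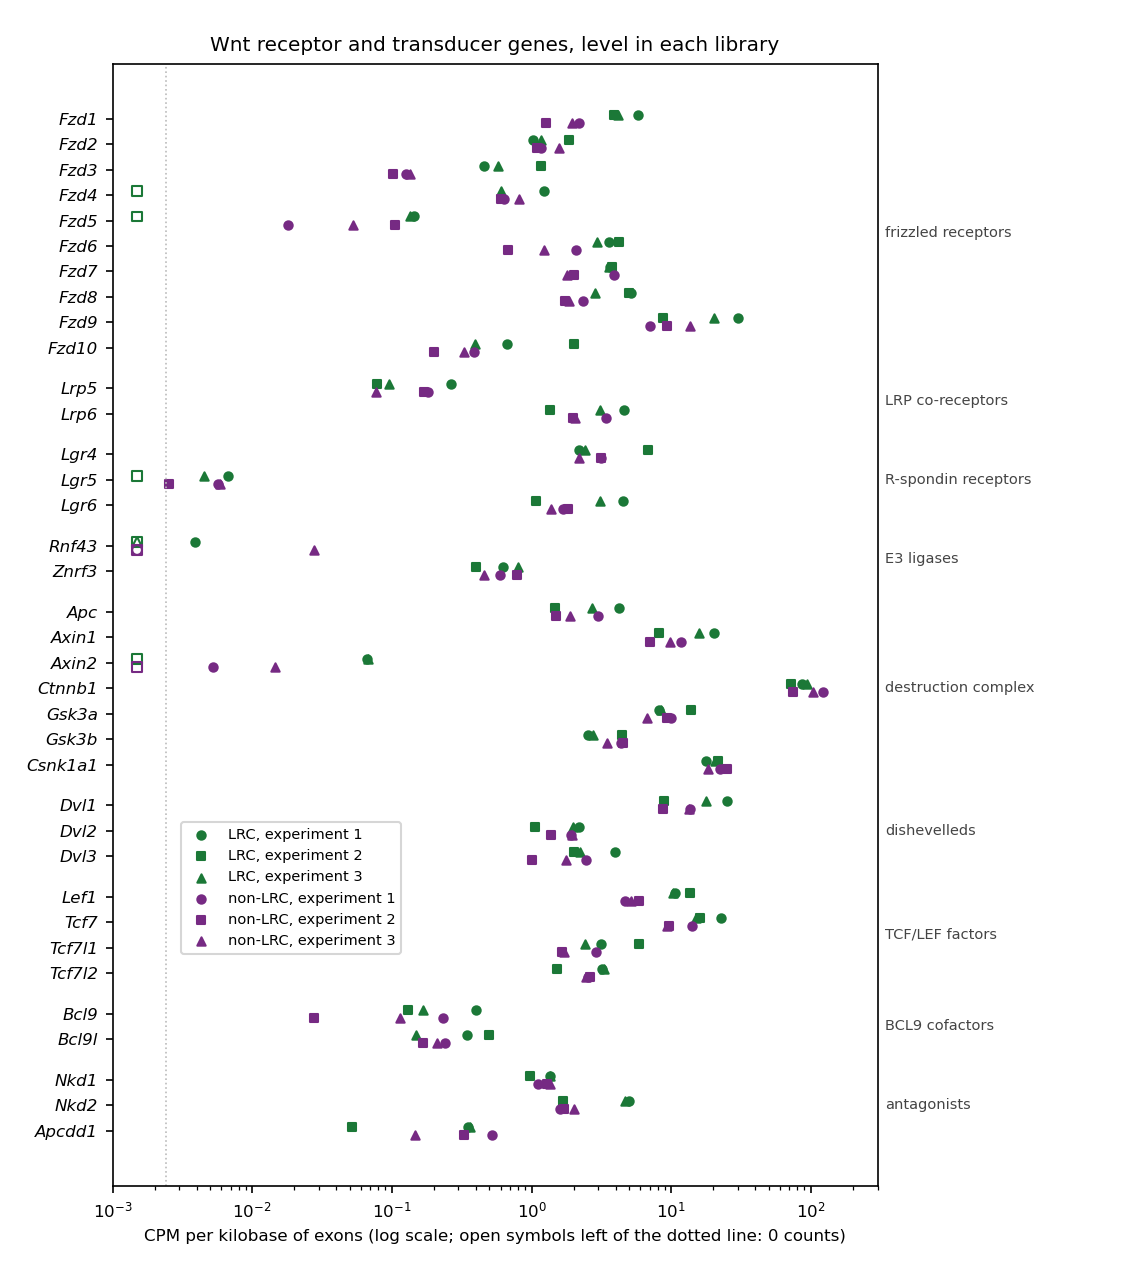
Level of the 36 members in each library, in CPM per kilobase of exons on a log axis, with LRCs in green and non-LRCs in purple, a symbol for each of the 3 experiments, and open symbols for 0 counts. *Ctnnb1* was highest in all 6 libraries, and the groups did not overlap for *Fzd1*, *Fzd3*, *Fzd6*, *Fzd8*, *Fzd10*, *Lef1* and *Tcf7*, with LRCs higher.

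*Lef1*, a β-catenin partner on DNA, rose 2.18-fold in LRCs and was the only member that passed the test, in edgeR's quasi-likelihood test with a block for the experiment and Benjamini-Hochberg adjustment over all 13728 genes. Of the 33 members tested, 1 rose (3.03%) and none fell at an adjusted p below 0.05, where 0.903% of all genes tested rose and 0.379% fell. At an unadjusted p below 0.05, 8 members were higher in LRCs (24.2%, against 8.89% of all genes) and none was lower (against 9.53%): *Fzd1*, *Fzd3*, *Fzd6*, *Fzd8*, *Axin1*, *Dvl3*, *Lef1* and *Tcf7*. With DESeq2, the tool named in the study's methods, and the same block, 6 members passed an adjusted p of 0.05 as higher (*Fzd1*, *Fzd3*, *Fzd6*, *Fzd8*, *Lef1* and *Tcf7*) and none as lower, against 6.16% and 6.15% of all genes. From these same libraries, the paper had named *Fzd1*, *Fzd3* and *Fzd8* as Wnt receptors, and *Fzd6* as a Wnt inhibitor, enriched in LRCs. The counts of members given here are thus not independent evidence of a direction.

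The direction was the same in all 3 experiments for 14 of the 33 members. A total of 12 were higher in LRCs each time (36.4%, against 20.4% of all genes tested) and 2 were lower, *Ctnnb1* and *Gsk3b* (6.06%, against 26.1%). Every LRC library lay above every non-LRC library for 7 members (21.2%, against 8.41%) and below for none (against 10.3%). The median fitted log2 fold change, LRC over non-LRC, was 0.52 over the members and -0.10 over all genes tested.

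**Figure D2:**
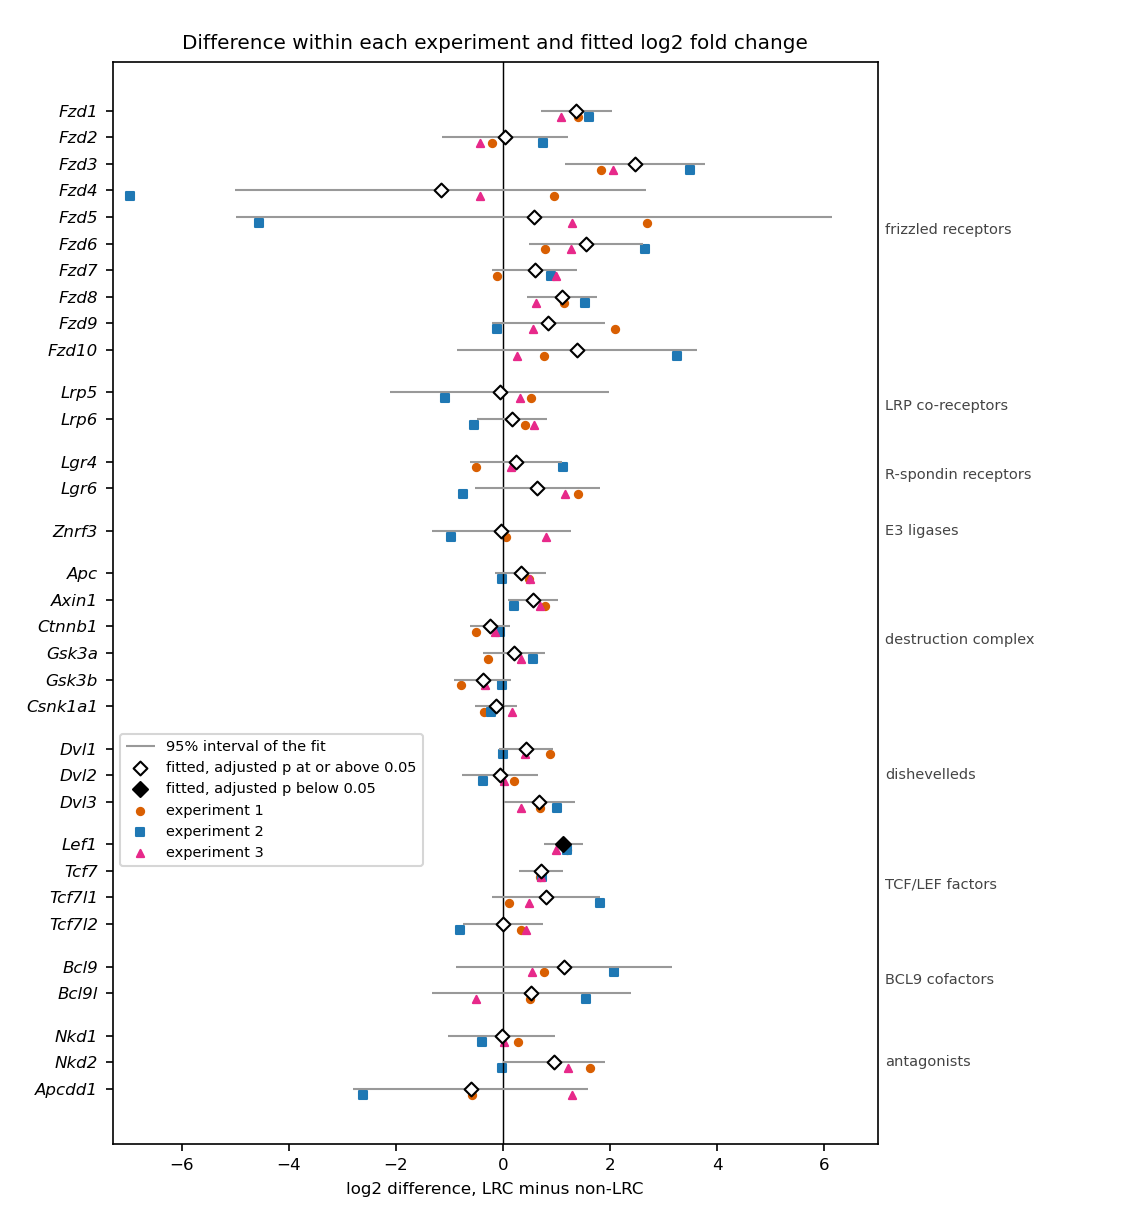
Log2 difference, LRC minus non-LRC, for the 33 members tested: coloured symbols give each experiment (log2 CPM with a prior count of 2), diamonds the fitted log2 fold change (filled where the adjusted p was below 0.05) and grey lines its 95% interval. Only *Lef1* is filled, at 1.13, and the widest intervals are those of *Fzd5* and *Fzd4*, which had 0 counts in the LRC library of experiment 2.

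Frizzleds are the membrane receptors that bind the Wnt ligand. Summed over the 10 genes, their level was 51.9, 30.6 and 36.7 CPM per kilobase for LRCs of experiments 1, 2 and 3, the order used throughout, and 19.9, 17.2 and 23.4 for non-LRCs. All LRC sums lay above all non-LRC sums. No frizzled passed the adjusted threshold in the edgeR fit. As higher in LRCs, 4 of the 10 passed at an unadjusted p below 0.05 (against 8.89% of all genes) and the same 4 with DESeq2 (against 6.16%). The 5 genes that did not overlap between the groups (against 8.41%) were also the 5 that were higher in LRCs in all 3 experiments (against 20.4%).

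*Fzd9* was the most abundant frizzled per kilobase in every library, with 28.4% to 58.4% of the summed level. It was at 69.3, 19.9 and 46.4 CPM in LRCs and 16.1, 21.5 and 31.3 CPM in non-LRCs. The groups overlapped, since the LRC library of experiment 2 lay below its non-LRC partner while the other two were above theirs. The fitted log2 fold change was 0.85 ± 0.43 (SE; edgeR adjusted p = 0.365), and 1.34 without experiment 2 (adjusted p = 0.0766). Of the other frizzleds, *Fzd1*, *Fzd8*, *Fzd7* and *Fzd6* came next, at 2.86 to 5.76 CPM per kilobase in LRCs and 0.674 to 3.91 in non-LRCs. Their ranges overlapped one another in both groups, except that *Fzd1* lay above *Fzd7* in LRCs.

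**Figure D3:**
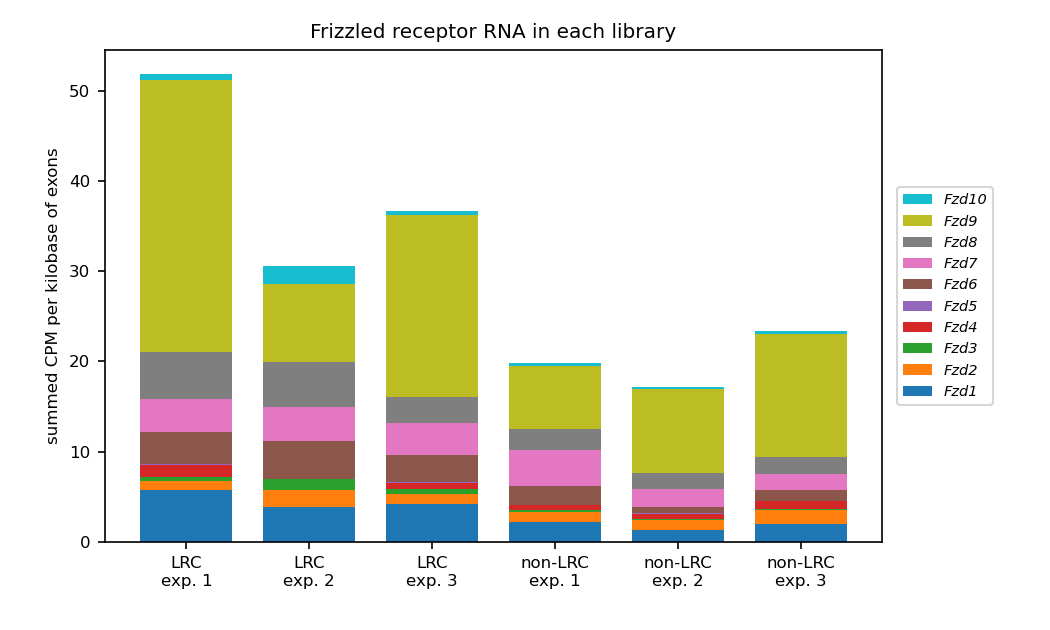
Summed level of the 10 frizzled receptors in each library, in CPM per kilobase of exons, stacked by gene from 0. LRC bars reach 30.6 to 51.9 and non-LRC bars 17.2 to 23.4, and *Fzd9* is the tallest segment in each.

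*Fzd1* (chr5:4753839-4758035, minus strand, GRCm38), a receptor able to signal through β-catenin, was at 24.2, 16.4 and 17.5 CPM in LRCs and 9.12, 5.37 and 8.17 CPM in non-LRCs. The lowest LRC library was above the highest non-LRC library, and the 3 differences lay close together, from 1.09 to 1.61 on the log2 scale. The fitted log2 fold change was 1.37 ± 0.27 (SE; edgeR adjusted p = 0.0791), which passed with DESeq2 (adjusted p = 0.000298) and without experiment 2 (1.25, edgeR adjusted p = 0.0325).

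*Fzd3* (chr14:65192449-65262463, minus strand) had the largest fitted difference of the list, though at a low level. It was at 5.81, 15.1 and 7.33 CPM in LRCs and 1.61, 1.31 and 1.73 CPM in non-LRCs. The non-LRC libraries were tightly grouped, and the LRC library of experiment 2 was the highest of all. The fitted log2 fold change was 2.47 ± 0.54 (SE; edgeR adjusted p = 0.0891), and 1.97 without experiment 2 (adjusted p = 0.0278).

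*Fzd6* (chr15:39006034-39038188, plus strand), the close relative of *Fzd3* in the tail sequence above, was at 17.4, 20.5 and 14.3 CPM in LRCs and 10.1, 3.25 and 5.90 CPM in non-LRCs. The groups did not overlap, but the difference was uneven, with 0.79 on the log2 scale in experiment 1 and 2.65 in experiment 2. The fit gave 1.56 ± 0.44 (SE; edgeR adjusted p = 0.143), and 1.03 without experiment 2 (adjusted p = 0.0625).

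*Fzd8* was at 30.7, 29.9 and 17.1 CPM in LRCs and 13.9, 10.4 and 11.1 CPM in non-LRCs. LRCs were higher in each experiment, least so in experiment 3. The fitted log2 fold change was 1.10 ± 0.27 (SE; edgeR adjusted p = 0.114), and 0.89 without experiment 2 (adjusted p = 0.0704). *Fzd10* also did not overlap between groups, but its level in the LRC library of experiment 2 (6.50 CPM) was far above those of experiments 1 and 3 (2.16 and 1.28 CPM), against 0.655 to 1.26 CPM in non-LRCs, and the fit gave 1.39 ± 0.92 (SE; adjusted p = 0.478), and 0.53 without experiment 2.

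The other 4 frizzleds overlapped between groups. *Fzd7* was at 16.4 to 17.0 CPM in LRCs and 8.17 to 17.7 CPM in non-LRCs, with 0.60 ± 0.32 as its log2 fold change. *Fzd2* was at 3.73 to 6.79 CPM in LRCs and 4.01 to 5.75 CPM in non-LRCs, with 0.03 ± 0.48. *Fzd4* turned on the library that stood apart: it was at 8.28, 0 and 4.07 CPM in LRCs and 4.27, 4.03 and 5.49 CPM in non-LRCs, so that its log2 fold change of -1.17 ± 1.57 became 0.28 without experiment 2. *Fzd5* had at most 0.993 CPM in any library and no count in the same LRC library, and its log2 fold change of 0.58, with a 95% interval of -4.99 to 6.16, became 2.16 without experiment 2 (adjusted p = 0.248).

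LRP5 and LRP6 are the co-receptors that carry the signal of the bound ligand to Axin. *Lrp6* made up 92.1% to 97.0% of the level of the pair per kilobase in every library. It was at 62.9, 18.5 and 42.0 CPM in LRCs and 47.0, 27.1 and 28.0 CPM in non-LRCs. LRCs were higher in experiments 1 and 3 and lower in experiment 2, with a log2 fold change of 0.16 ± 0.27 (SE; edgeR adjusted p = 0.788), and 0.50 without experiment 2 (adjusted p = 0.125). *Lrp5* stayed at or under 2.58 CPM in all libraries, with -0.06 ± 0.84.

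The R-spondin receptors *Lgr4* and *Lgr6* were both expressed, and their order depended on the library. *Lgr4* was at 13.0, 40.1 and 14.1 CPM in LRCs and 18.4, 18.5 and 12.8 CPM in non-LRCs, and *Lgr6* at 30.8, 7.36 and 21.2 CPM in LRCs and 11.6, 12.4 and 9.42 CPM in non-LRCs. The LRC library of experiment 2 was the highest of all for *Lgr4* and the lowest for *Lgr6*. In that library *Lgr4* held 86.4% of the summed level of the 3 receptors per kilobase, against 32.8% and 43.7% in the other LRC libraries and 61.2% to 64.8% in non-LRCs. The fitted log2 fold changes were 0.25 ± 0.35 for *Lgr4* and 0.64 ± 0.48 for *Lgr6* (edgeR adjusted p = 0.753 and 0.532). Without experiment 2, *Lgr6* passed the test at 1.29 (adjusted p = 0.0245) and *Lgr4* was at -0.18 (adjusted p = 0.703).

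*Lgr5*, a marker of Wnt-responsive stem cells in the intestine, was near absent at this depth, with 8, 0 and 2 counts in LRCs and 6, 1 and 3 in non-LRCs. The E3 ligase *Rnf43* had 3, 0 and 0 counts in LRCs and 0, 0 and 9 in non-LRCs. Neither gene gave a difference that these counts could show. The related ligase *Znrf3* was at 4.92, 3.15 and 6.35 CPM in LRCs and 4.72, 6.26 and 3.62 CPM in non-LRCs. Its groups overlapped fully, with a log2 fold change of -0.03 ± 0.53 (SE; edgeR adjusted p = 0.981).

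The summed level of the destruction complex, with its substrate *Ctnnb1* counted in, overlapped between the groups. It was 140, 122 and 144 CPM per kilobase in LRCs and 174, 122 and 145 in non-LRCs. *Ctnnb1* made up 59.3% to 72.2% of the sum, which thus says little of the other members. No member of the complex passed the adjusted threshold. At an unadjusted p below 0.05, 1 of the 6 tested was higher in LRCs (against 8.89% of all genes). *Ctnnb1* RNA (chr9:120929216-120960507, plus strand) was at 451, 374 and 486 CPM in LRCs and 636, 387 and 542 CPM in non-LRCs. LRCs were the lower of each pair, but the groups overlapped. The log2 fold change was -0.23 ± 0.15, with a 95% interval of -0.61 to 0.14 (edgeR adjusted p = 0.469). RNA levels say nothing of the stability of the β-catenin protein.

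*Axin1*, the scaffold of the complex, was at 77.2, 31.1 and 60.5 CPM in LRCs and 45.0, 27.0 and 37.7 CPM in non-LRCs. It was higher in LRCs in each experiment, by the least in experiment 2, and the groups overlapped. The fit gave 0.56 ± 0.19 (SE; edgeR adjusted p = 0.205, unadjusted p = 0.0263), and 0.73 without experiment 2 (adjusted p = 0.0527). *Axin2*, the paralogue that the pathway induces as negative feedback, had 43, 0 and 16 counts in LRCs and 3, 0 and 4 in non-LRCs. It was thus highest in LRCs of experiments 1 and 3, at 0.368 and 0.372 CPM, and without a count in either library of experiment 2, where it could not be compared.

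The kinases and *Apc* did not pass. *Gsk3b*, which phosphorylates β-catenin, was at 24.9 to 44.0 CPM in LRCs and 34.3 to 44.3 CPM in non-LRCs, lower in LRCs in each experiment by 0.01 to 0.79 on the log2 scale, with a fit of -0.38 ± 0.22 (edgeR adjusted p = 0.413). Its paralogue *Gsk3a* gave 0.20 ± 0.24, *Csnk1a1* gave -0.13 ± 0.16 and *Apc* gave 0.33 ± 0.20 (adjusted p of 0.701, 0.709 and 0.432). Without experiment 2, they gave 0.02, -0.09 and 0.50.

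Dishevelleds pass the signal from frizzled to the complex. *Dvl1* made up 74.1% to 80.9% of their summed level per kilobase. It was at 125, 44.2 and 89.0 CPM in LRCs and 68.0, 44.0 and 67.2 CPM in non-LRCs. LRCs were above their partners in experiments 1 and 3 and level with them in experiment 2, with a log2 fold change of 0.43 ± 0.20 (SE; edgeR adjusted p = 0.333). *Dvl3* was at 25.5, 13.0 and 14.3 CPM in LRCs and 15.8, 6.41 and 11.3 CPM in non-LRCs. It was higher in LRCs in each experiment, although the groups overlapped, with a fit of 0.68 ± 0.27 (SE; adjusted p = 0.261, unadjusted p = 0.0454). *Dvl2* was at 6.69 to 13.9 CPM in LRCs and 8.64 to 12.3 CPM in non-LRCs, with -0.05 ± 0.29.

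TCF/LEF factors bind the target genes. Their summed level was 39.7, 37.0 and 31.1 CPM per kilobase in LRCs and 24.1, 19.9 and 18.6 in non-LRCs, without overlap. *Lef1* (chr3:131110471-131224356, plus strand) was at 93.6, 119 and 90.3 CPM in LRCs and 40.9, 51.8 and 45.7 CPM in non-LRCs. Each LRC library held about the same excess over its partner, 1.19, 1.20 and 0.98 on the log2 scale. The fitted log2 fold change was 1.13 ± 0.15, with a 95% interval of 0.76 to 1.49 (edgeR adjusted p = 0.0381). The call was lost without the block (adjusted p = 0.201) and without experiment 1 (1.09, adjusted p = 0.173), with the fold change nearly as large, and over all 12 settings the log2 fold change lay between 1.09 and 1.22. Of the annotated exon bases of *Lef1*, 13.7% overlap those of the predicted gene *Gm43352*.

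*Tcf7* (chr11:52252371-52283014, minus strand), the most abundant of the 4 per kilobase in every library, was at 59.5, 42.2 and 39.7 CPM in LRCs and 36.8, 25.5 and 24.3 CPM in non-LRCs. The LRC libraries lay above all non-LRC libraries, and the 3 differences were the most even of the list, from 0.69 to 0.73 on the log2 scale. The fit gave 0.71 ± 0.17 (SE; edgeR adjusted p = 0.109), and 0.70 without experiment 2 (adjusted p = 0.0635). *Tcf7l1*, which mostly acts as a repressor, was at 12.3, 22.9 and 9.40 CPM in LRCs and 11.4, 6.47 and 6.72 CPM in non-LRCs. It was higher in LRCs each time, but by 0.12 in experiment 1 and 1.82 in experiment 2, so that the fit of 0.80 ± 0.41 fell to 0.30 without experiment 2. *Tcf7l2* was at 13.3 to 28.9 CPM in LRCs and 21.5 to 23.2 CPM in non-LRCs, with 0.00 as its fitted log2 fold change to 2 decimals and 0.30 as its SE.

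The BCL9 cofactors, which link β-catenin to the transcription machinery, were low. *Bcl9* was at 1.10 to 3.37 CPM in LRCs and 0.236 to 1.97 CPM in non-LRCs, and *Bcl9l* at 1.19 to 3.97 and 1.34 to 1.94 CPM. Their groups overlapped, and their log2 fold changes of 1.14 and 0.52 became 0.67 and 0.02 without experiment 2. Their 95% intervals ran from -0.88 to 3.17 and from -1.34 to 2.38, wide enough to hold sizeable differences in either direction.

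Of the antagonists, the naked cuticle genes act on dishevelled inside the cell and *Apcdd1* acts at the membrane. *Nkd2* was at 24.0, 8.13 and 22.4 CPM in LRCs and 7.77, 8.27 and 9.68 CPM in non-LRCs. It was thus well above the non-LRCs in 2 of the LRC libraries and level with them in that of experiment 2. The log2 fold change was 0.95 ± 0.39 (SE; edgeR adjusted p = 0.275), and without experiment 2 it passed the test at 1.42 (adjusted p = 0.0239). *Nkd1*, its paralogue, was at 4.45 to 6.21 CPM in LRCs and 5.04 to 6.14 CPM in non-LRCs, with -0.03 ± 0.41. *Apcdd1* was at 4.50, 0.669 and 4.65 CPM in LRCs and 6.73, 4.27 and 1.89 CPM in non-LRCs, mixed in direction, with -0.60 ± 0.90, and 0.33 without experiment 2.

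Leaving out experiment 2 raised the number of members that passed from 1 to 5, all of them higher in LRCs: *Fzd1*, *Fzd3*, *Lgr6*, *Lef1* and *Nkd2*. Over all genes, calls rose from 124 to 476 in the higher and from 52 to 306 in the lower direction, so that the gain was not particular to the list. The median log2 fold change of the members was 0.50, and 9 members turned their direction, none of which passed either test. *Lgr6*, *Nkd2*, *Fzd9*, *Dvl1* and *Axin1* gained in difference and *Fzd3*, *Fzd6*, *Fzd10* and *Tcf7l1* lost. The LRC library of experiment 2 was the lowest LRC library for each of the former and the highest for each of the latter. Its non-LRC partner was also the lowest non-LRC library for *Fzd3*, *Fzd6*, *Fzd10* and *Tcf7l1*. This order did not hold for every member. *Fzd1*, *Dvl3* and *Bcl9* were also lowest among LRCs in that of experiment 2, but lost in difference. Their log2 fold changes went from 1.37 to 1.25, from 0.68 to 0.52 and from 1.14 to 0.67. The LRC library of experiment 2 also had the lowest superficial articular or synovial marker sum of the LRC libraries. This sum was 786 CPM, against 2633 and 2494 CPM in experiments 1 and 3. Its non-LRC partner had the lowest such sum of the non-LRC libraries, 322 CPM. Other lists also set the LRC library of experiment 2 apart. Its growth plate chondrocyte and osteoblast sums were the lowest of the LRC libraries. Its hypertrophic, fibroblast and perichondrium, leukocyte and endothelial sums were the highest. How far any of these sums belongs with the changes of the members was not tested.

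**Figure D4:**
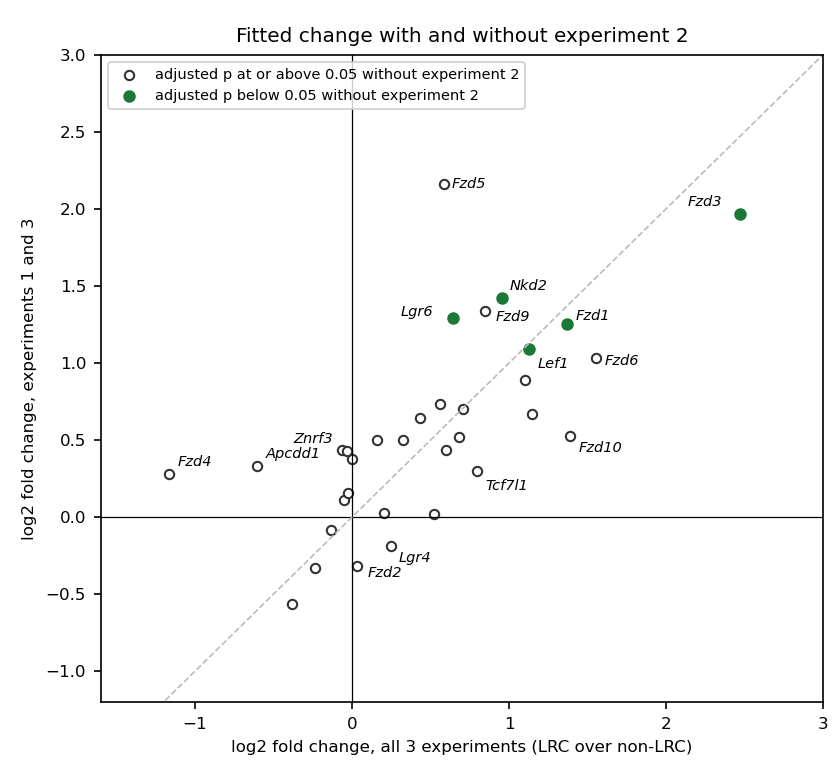
Fitted log2 fold change of each member with all 3 experiments (horizontal) and with experiments 1 and 3 (vertical), with the dashed line marking equal values and filled symbols an adjusted p below 0.05 without experiment 2. *Lgr6* and *Nkd2* move up to 1.29 and 1.42, *Fzd3* moves down to 1.97, and *Fzd4* crosses from -1.17 to 0.28.

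The rest of the pathway was followed with 117 further genes, of which 94 were tested, 6 rose and 2 fell in LRCs at an adjusted p below 0.05 (against 0.903% and 0.379% of all genes tested). Among 10 Wnt ligands tested, *Wnt7b* rose, with a log2 fold change of 1.09 (edgeR adjusted p = 0.0440). Among 3 R-spondins tested, which feed the LGR receptors, *Rspo3* fell by 2.04 and *Rspo4* by 2.69 on the log2 scale (adjusted p of 0.0440 and 0.0176). Among 16 secreted or membrane-bound inhibitors tested, *Wif1*, which binds Wnt ligands, rose by 1.92, and *Notum*, which inactivates them, by 1.66. *Igfbp4*, which can block frizzled and LRP6, rose by 2.51, and none of these inhibitors fell. DESeq2 passed 9 inhibitors as higher in LRCs and none as lower, against 6.16% and 6.15% of all genes. The paper also named *Sfrp1*, *Sfrp5* and *Dkk2* among the inhibitors enriched in LRCs. Among 16 genes known to respond to the pathway in other tissues, *Ccnd2* (cyclin D2) rose by 2.34 and *Tnfrsf11b* (osteoprotegerin) by 1.19. None of them fell in edgeR, while DESeq2 passed 5 response genes as higher and 1 as lower. None of 2 secretion genes, 29 further regulators of the destruction complex and 18 nuclear cofactors passed in edgeR. DESeq2 passed 1 of these regulators and 1 cofactor as higher, and 2 ligands as higher and 2 as lower. Over the 117 genes it passed 18 as higher and 5 as lower, against 6.16% and 6.15% of all genes.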

How the data were processed

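Libraries of LRCs and non-LRCs from 3 experiments were grouped by the sample labels. The authors amplified cDNA, aligned single-end reads to mm10 (GRCm38) with TopHat2 2.0.13 and Bowtie2 2.2.1, and counted reads per gene with HTSeq. The gene annotation and strand setting are not given in the sources used here, which leaves genes that overlap others uncertain. The values used for all tests are raw counts per gene as deposited, for 23159 genes. The authors also deposited a normalized signal, made by dividing the counts by size factors, and log2 values that DESeq2's rlog had transformed, and neither entered a test here.

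The analysis used edgeR 4.0.16 in R 4.3.3: filterByExpr (minimum count 10, minimum total 15), TMM, a block for the experiment, the quasi-likelihood test, and Benjamini-Hochberg adjustment over the 13728 genes tested. The block follows the study's paired model. Deviations from the group means correlated within experiments with Pearson r of 0.197, 0.288 and 0.336 across genes. Errors in the text are SE of the log2 fold change. Per the study's methods, the 3 experiments were independent. Pairs of libraries differed by a chi-square of at least 185 per gene, so none was a copy of another. Limits from counts cover counting error only. Alternatives used DESeq2 1.42.0 and limma 3.58.1 (voom). Symbols were matched to GENCODE vM21: 20778 by current and 1902 by older symbol, 479 not at all. The members, lists and tests were chosen with earlier results of these data known. The 36 members are all accounted for, with values in every library for those with an unadjusted p below 0.05, the most abundant of a group and those under the low-count filter, and for others by range.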

Additional observations from a re-analysis of the deposited data

How the results depend on the processing

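The count of members that rose in LRCs, 1 with the block for the experiment, was 0 without the block, where *Lef1* had an adjusted p of 0.201 and 1 gene passed in the whole table. It was 6 with DESeq2, 8 with limma-voom and 3 with at least 10 counts in every library (30 members tested), where calls higher over all genes went from 124 to 847, 717 and 421. It was 0 without experiment 1, 5 without experiment 2 and 1 without experiment 3, beside 27, 476 and 139 calls higher over all genes. It stayed at 1 with DESeq2 size factors, without a filter, with counts thinned to the smallest total and with GC content and length offsets, where *Lef1* had an adjusted p of 0.0496. No member fell under any of these settings. The cause of the differences between tools was not tested.

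*Fzd1*, *Fzd3*, *Fzd6*, *Fzd8*, *Lef1* and *Tcf7* kept their direction under all alternatives. A kept direction was not particular to them. In every setting that tested them, *Fzd7*, *Fzd9*, *Fzd10*, *Lgr6*, *Apc*, *Axin1*, *Gsk3a*, *Dvl1*, *Dvl3*, *Tcf7l1*, *Bcl9*, *Bcl9l* and *Nkd2* stayed higher in LRCs. *Ctnnb1*, *Gsk3b* and *Csnk1a1* stayed lower. The other members tested turned their direction in some settings. With limma-voom these were *Fzd2* at -0.10, *Fzd4* at 0.43, *Lrp5* at 0.32, *Znrf3* at 0.12, *Dvl2* at 0.070, *Tcf7l2* at 0.17 and *Nkd1* at 0.11. Without experiment 2 they were *Fzd2* at -0.32, *Fzd4* at 0.28, *Lrp5* at 0.43, *Lgr4* at -0.18, *Znrf3* at 0.43, *Dvl2* at 0.11, *Tcf7l2* at 0.38, *Nkd1* at 0.16 and *Apcdd1* at 0.33. *Fzd5* was at -1.63 without experiment 1, -0.89 without experiment 3 and -0.16 with thinned counts, and *Lrp6* at -0.038 without experiment 3. *Fzd2* was at -0.14 with thinned counts and -0.030 with GC content and length offsets. Without the block, *Lrp5* was at 0.042, *Dvl2* at 0.00051 and *Tcf7l2* at 0.073, and *Tcf7l2* was at 0.0068 with DESeq2 and with its size factors. The other ends of the ranges with an experiment left out were 0.30 for *Fzd2*, -3.24 for *Fzd4*, 2.16 for *Fzd5*, -0.39 for *Lrp5*, 0.50 for *Lrp6*, 0.63 for *Lgr4*, -0.44 for *Znrf3*, -0.18 for *Dvl2*, -0.20 for *Tcf7l2*, -0.19 for *Nkd1* and -1.57 for *Apcdd1*. None of these passed a test.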
